A study of Mus musculus with 6 samples.

Results

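The 10 genes described here encode enzymes that make, attach and remove *N*-acetylglucosamine (GlcNAc) in the cell, and they were read by gene symbol from a table of 24420 genes. All 10 were listed, and all 10 passed the low-count filter. O-GlcNAc is a GlcNAc residue on serines and threonines of nuclear and cytosolic proteins. OGT attaches it, and OGA, the product of *Mgea5*, removes it. The sugar donor is UDP-GlcNAc, the end product of the hexosamine pathway, which draws on glucose, glutamine, acetyl-CoA and UTP. In that pathway GFPT1 makes glucosamine 6-phosphate from fructose 6-phosphate and glutamine, GNPNAT1 acetylates it, PGM3 moves the phosphate, and UAP1 joins the product to UDP. NAGK returns free GlcNAc to the pathway, whereas AMDHD2 and GNPDA1 lead its sugars back towards fructose 6-phosphate. EOGT, despite its name, works in the endoplasmic reticulum and modifies EGF-like domains of extracellular proteins. In T cells the demand for UDP-GlcNAc is known to increase upon T cell receptor stimulation.

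The samples were YFP+ Treg cells, sorted after CD4 bead selection from female C57BL/6 mice. Of these samples, 3 were of genotype Foxp3YFP-Cre/wtOgtwt/fl (OGT-sufficient) and 3 of genotype Foxp3YFP-Cre/wtOgtfl/fl (OGT-deficient). The paper's sequencing methods name no organ, and its other bead isolations of mouse T cells drew on lymph nodes and spleen. The organ is therefore uncertain here. Apart from young males, the study's mice were aged 6 to 12 weeks unless stated otherwise. Every mouse, the OGT-sufficient ones included, carried the Foxp3YFP-Cre allele on 1 X chromosome and at least 1 floxed *Ogt* allele. Cre is expressed from the *Foxp3* locus, so that recombination takes place only after a cell has turned on *Foxp3*, and YFP marks the cells in which the Cre-bearing X chromosome is active. Whether the floxed allele of the OGT-sufficient mice lies on that chromosome is not given in the sources used here, and the group names are those of the study.

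Total counts were between 3375454 and 4103552 per sample. Of these, between 24.2% (OGT-sufficient replicate 3) and 37.1% (OGT-deficient replicate 3) fell on the ribosomal RNA entry *Rn45s*. Without it the totals were between 2488303 and 2686873. Levels are given in CPM, counts per 1000000 of the library size scaled by the TMM method, where 3 counts correspond to between 0.756 and 0.805 CPM. All 7 Treg markers examined, *Foxp3* and *Il2ra* among them, were detected, and their summed level was between 1989 and 2954 CPM per sample. Of the 7, 1 (*Tnfrsf18*, log2 fold change 0.57) had an unadjusted p under 0.05, against 7.1% of all genes tested. *Il2ra* and *Tnfrsf18* were higher in every OGT-deficient sample, and the other Treg markers overlapped between groups. Groups were separate for 13.2% of all genes tested. The 10 macrophage markers examined summed to between 1842 and 3959 CPM in OGT-sufficient and between 1313 and 5664 CPM in OGT-deficient samples, so the ranges overlapped, and 0 of the 10 had an unadjusted p under 0.05. In OGT-sufficient replicates 1, 2 and 3 these sums were 3959, 3468 and 1842 CPM, against 2632, 2954 and 1989 CPM for the Treg markers. In OGT-deficient replicates 1, 2 and 3 they were 1313, 4802 and 5664 CPM, against 2931, 2696 and 2707 CPM. Levels are therefore those of the whole sample and cannot be assigned to Treg cells alone. OGT-sufficient replicate 3 stood apart: it had counts on 310 of 1125 olfactory receptor genes, the others on 13 to 56, and the 4 erythroid markers summed to 835 CPM there, against 211 to 470 elsewhere. Fewer cells of a type and less RNA per cell cannot be told apart in these bulk samples.

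Both enzymes of the O-GlcNAc cycle were lower in every OGT-deficient sample, and neither difference passed the test after adjustment over all genes. *Ogt* was at 0.433 times and *Mgea5* at 0.567 times its OGT-sufficient level, with no overlap between the groups in either gene. Of the other 8 genes, *Gfpt1* was higher in every OGT-deficient sample, with a fold change of 1.24, *Pgm3* was lower in every OGT-deficient sample, at 0.801 times, and the remaining 6 overlapped between groups. In edgeR's quasi-likelihood test, 0 of the 10 genes passed a false discovery rate (FDR) of 0.1, against 0.0274% of the 10949 genes tested. At an unadjusted p under 0.05, 2 of the 10 were found, *Ogt* and *Mgea5*, against 7.1% of all genes tested. Both passed an FDR of 0.1 with DESeq2, with edgeR's exact test and without the low-count filter, settings in which 0.351%, 0.731% and 0.665% of all genes with an adjusted p passed. Over the 10 genes the log2 fold changes had a median of 0.04, and over all genes tested -0.02. The groups were separate for 4 of the 10 genes, against 13.2% of all genes tested, and every OGT-deficient sample was below every OGT-sufficient sample for 3 of the 10, against 7.48%. These counts include *Ogt*, whose lower level is set by the design. Without *Ogt*, 1 of 9 genes had an unadjusted p under 0.05 in edgeR's quasi-likelihood test and 3 of 9 had separate groups. For 2 of these 9, every OGT-deficient sample was below every OGT-sufficient sample.

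**Figure D1:**
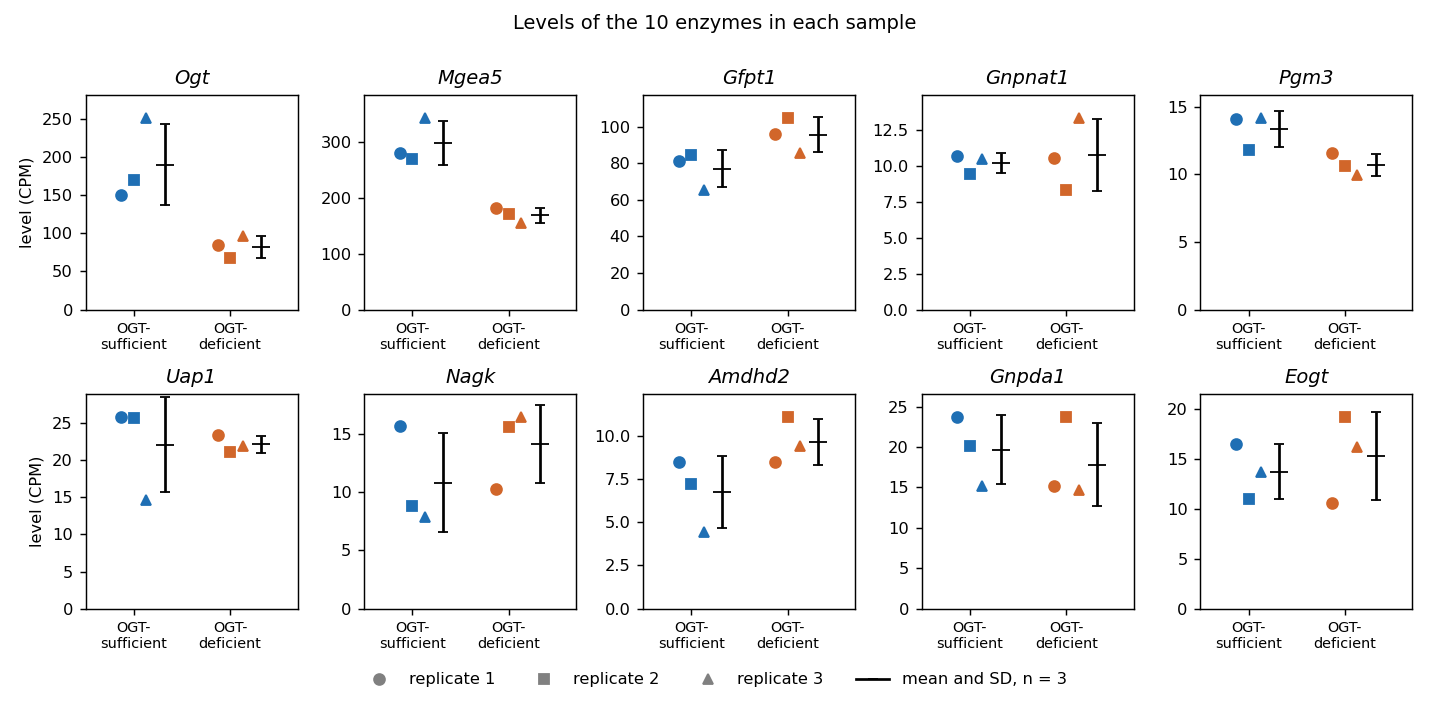
Level of each of the 10 enzyme genes (y axis, CPM, starting at 0) in the 3 OGT-sufficient (blue) and 3 OGT-deficient (orange) samples; symbols mark the replicate and black bars the mean and SD. The groups are separate for *Ogt*, *Mgea5*, *Gfpt1* and *Pgm3*, and overlap for the other 6 genes.

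*Ogt*, the targeted gene, lies on the X chromosome at chrX:101640060-101684351 (plus strand; mm10) and overlaps no other gene in GENCODE M21. Counts were 562, 632 and 957 in OGT-sufficient and 327, 266 and 368 in OGT-deficient samples (replicates 1, 2 and 3). All OGT-deficient samples were below all OGT-sufficient samples, and the highest value by far was that of OGT-sufficient replicate 3. The mean level was 190 ± 53.7 CPM in the OGT-sufficient and 82.4 ± 14.6 CPM in the OGT-deficient group (SD, n = 3 each). The log2 fold change was -1.21 (standard error 0.21, 95% interval -1.68 to -0.73), with an adjusted p of 0.191 by edgeR's quasi-likelihood test, and *Ogt* ranked 16 among the 10949 genes by its unadjusted p of 0.000301. Without OGT-sufficient replicate 3, the log2 fold change was -0.94 and the adjusted p 0.140. Over all alternatives the adjusted p ranged from 1.62e-05 to 0.764. The count covers the whole gene, so transcripts that have lost the floxed exons and transcripts that keep them cannot be told apart, and a remaining level of 0.433 times (95% interval 0.311 to 0.604) does not measure the share of cells that kept OGT.

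*Mgea5*, now also named *Oga*, encodes the O-GlcNAcase and lies at chr19:45750259-45783837 (minus strand; mm10). Replicates 1, 2 and 3 gave 1053, 1005 and 1306 counts in OGT-sufficient and 704, 675 and 592 counts in OGT-deficient samples. As for *Ogt*, OGT-sufficient replicate 3 was the highest and the groups were separate, but replicates within a group lay closer together. Means were 297 ± 39.3 CPM for the OGT-sufficient and 168 ± 13.3 CPM for the OGT-deficient group (SD, n = 3 each). The log2 fold change was -0.82 (standard error 0.13, 95% interval -1.11 to -0.53), with an adjusted p of 0.191 by edgeR's quasi-likelihood test. By its unadjusted p of 0.000145 *Mgea5* ranked 8 among all genes tested, ahead of *Ogt*. Without OGT-sufficient replicate 3, the log2 fold change was -0.70 and the adjusted p 0.119, and over all alternatives the adjusted p ranged from 0.000384 to 0.763. When the level of the macrophage list was added to the fit, an alternative chosen after seeing the data, the adjusted p was 0.0607 for *Mgea5* and 0.0710 for *Ogt*, with log2 fold changes of -0.80 and -1.16, and 0.283% of all genes passed an FDR of 0.1. In GENCODE M21 an antisense transcript shares 551 of the 8592 exonic bases of *Mgea5*, and since the strand setting of the counting is not given, reads of that transcript could be among these counts.

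The ratio of *Ogt* to *Mgea5* counts within a library needs no scaling between libraries. Among OGT-sufficient libraries the ratios were 0.534, 0.629 and 0.733 (replicates 1, 2 and 3), and among OGT-deficient libraries 0.464, 0.394 and 0.622. The means were 0.632 ± 0.0996 (SD, n = 3) and 0.493 ± 0.117 (SD, n = 3), and the groups overlapped, because OGT-deficient replicate 3 had a higher ratio than OGT-sufficient replicate 1. No test was made of this ratio, so a larger difference in *Ogt* than in *Mgea5* is not shown. *Mgea5* counts exceeded *Ogt* counts in all 6 libraries.

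**Figure D2:**
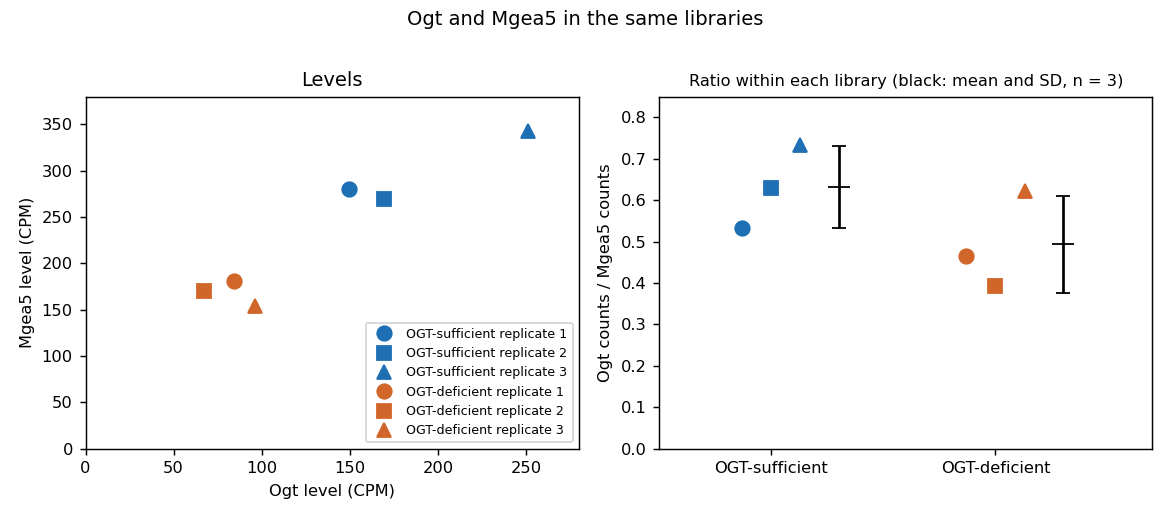
Left, level of *Mgea5* (y axis, CPM) against that of *Ogt* (x axis, CPM) in the 6 samples; right, ratio of *Ogt* to *Mgea5* counts in each library (y axis, starting at 0), with the mean and SD of 3 samples in black. On the left the OGT-deficient samples lie at lower values of both genes, and on the right the ranges of 0.534 to 0.733 and 0.394 to 0.622 overlap.

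To show what lies in front of the targeted gene, the 250 bases before its first RefSeq start (GRCm38.p6), at chrX:101639801-101640050 on the plus strand, are given 5′ to 3′. Capitals mark matches to 8 short motifs searched on both strands.
Ogt: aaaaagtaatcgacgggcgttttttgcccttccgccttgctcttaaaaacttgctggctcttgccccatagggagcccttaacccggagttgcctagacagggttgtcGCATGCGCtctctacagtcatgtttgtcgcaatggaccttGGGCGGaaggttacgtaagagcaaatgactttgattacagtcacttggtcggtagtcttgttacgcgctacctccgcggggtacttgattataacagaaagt
The motifs were the SP1 box GGGCGG, the ETS core CCGGAA, the CCAAT box CCAAT, the E-box CACGTG, the CRE TGACGTCA, the NRF1 core GCATGCGC, the STAT spacing TTCNNNGAA and the forkhead motif TGTTTAC. The sequence held 1 SP1 box and 1 NRF1 core, which do not overlap each other, and none of the other 6. Of 32851 annotated promoters, 32.7% held the SP1 box and 2.26% the NRF1 core in the same window. The other motifs were held by 12.03% (CCGGAA), 33.9% (CCAAT), 6.02% (CACGTG), 1.55% (TGACGTCA), 7.02% (TTCNNNGAA) and 3.17% (TGTTTAC) of these promoters. The G and C content of the sequence was 49.6%, with a median of 52.4% over all promoters. It held the base pair step CG 15 times, with a median of 6 over all promoters.

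The genes whose pattern was most like that of *Ogt* were found by the Pearson correlation of log2 CPM over the 6 samples, as a description, since the 6 points share the difference between groups. They were *Luc7l2* (0.998), *Bicd2* (0.995), *1110028F11Rik* (0.993), *Myo1c* (0.989) and *D430042O09Rik* (0.988). *Mgea5* followed *Ogt* with a correlation of 0.932, at rank 111 of 10948 genes. Those most like *Mgea5* were *Sec11c* (0.997), *Smc1a* (0.993), *Rragb* (0.990), *Itga4* (0.989) and *Tmem41a* (0.984), with *Ogt* at rank 90. The 2 lists had no gene in common. Some of these genes were low: *1110028F11Rik* was at 1.01 to 6.29 CPM, *Rragb* at 1.26 to 3.93 CPM and *Tmem41a* at 2.09 to 4.98 CPM.

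Among the 4 enzymes of the de novo pathway, *Gfpt1* had the lowest p. GFPT1 is the rate-limiting enzyme of the pathway and is inhibited by its end product UDP-GlcNAc. Its gene, at chr6:87042846-87092197 (plus strand; mm10), overlaps no other gene. Counts were 306, 315 and 250 in OGT-sufficient and 375, 416 and 329 in OGT-deficient samples (replicates 1, 2 and 3). Scaled to library size, the highest OGT-sufficient sample was at 84.5 CPM and the lowest OGT-deficient sample at 85.9 CPM, so the groups were separate by a narrow margin. Means were 77.2 ± 10.2 CPM for the OGT-sufficient and 95.7 ± 9.49 CPM for the OGT-deficient group (SD, n = 3 each), for a log2 difference of 0.31 (standard error 0.14, 95% interval -0.0037 to 0.62). It did not pass the test (edgeR's quasi-likelihood test, adjusted p = 0.699, unadjusted 0.0522). The log2 fold change was positive in all 16 alternatives, between 0.21 and 0.42, and 7 of them gave an unadjusted p under 0.05 but 0 an adjusted p under 0.1.

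*Pgm3* encodes the phosphoglucomutase that turns GlcNAc 6-phosphate into GlcNAc 1-phosphate, and lies at chr9:86554377-86571842 (minus strand; mm10). Replicates 1, 2 and 3 gave 53, 44 and 54 counts in OGT-sufficient and 45, 42 and 38 counts in OGT-deficient samples. In CPM all OGT-deficient samples (9.92 to 11.6) were below all OGT-sufficient samples (11.8 to 14.2). The log2 fold change was -0.32 (standard error 0.19, 95% interval -0.76 to 0.12; edgeR's quasi-likelihood test, adjusted p = 0.759). It was negative in all 16 alternatives. In the annotation 1270 of its 4487 exonic bases are shared with *Dop1a* on the opposite strand, so its count is uncertain.

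*Uap1* and *Gnpnat1* showed no difference that could be detected. *Uap1*, which encodes the pyrophosphorylase of the last step and lies at chr1:170141938-170174957 (minus strand; mm10), gave 97, 96 and 56 counts in OGT-sufficient samples (replicates 1, 2 and 3) and 91, 84 and 84 in OGT-deficient samples. OGT-sufficient replicate 3 alone was low, at 14.7 CPM, and the other 5 samples were between 21.2 and 25.8 CPM. The log2 fold change was 0.0054 (standard error 0.23, 95% interval -0.50 to 0.52; adjusted p = 0.997, edgeR's quasi-likelihood test), and -0.21 without that sample (adjusted p = 0.872). *Gnpnat1*, which encodes the acetyltransferase and lies at chr14:45376334-45404913 (minus strand; mm10), had 33 to 51 counts per sample and a log2 fold change of 0.07 (standard error 0.23, 95% interval -0.45 to 0.60; adjusted p = 0.955). Its models share 3878 of 4735 exonic bases with *Styx* on the opposite strand, so its count is uncertain as well. The sum of the 4 de novo genes averaged 123 ± 15.5 CPM for the OGT-sufficient and 139 ± 7.28 CPM for the OGT-deficient group (SD, n = 3 each), and the lowest OGT-deficient sum (131.0 CPM) was below the highest OGT-sufficient sum (132 CPM).

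For the salvage and breakdown enzymes the groups overlapped in all 3 genes. *Nagk* encodes the kinase that phosphorylates GlcNAc freed from glycans, and lies at chr6:83794982-83804018 (plus strand; mm10). Replicates 1, 2 and 3 gave 59, 33 and 30 counts in OGT-sufficient and 40, 62 and 63 counts in OGT-deficient samples. OGT-sufficient replicate 1 lay between the 2 highest OGT-deficient samples in CPM. The log2 fold change was 0.38 (standard error 0.31, 95% interval -0.31 to 1.08; edgeR's quasi-likelihood test, adjusted p = 0.819). It was 0.79 without OGT-sufficient replicate 1 (adjusted p = 0.662; unadjusted 0.0254). The macrophage markers were low in the same samples as *Nagk* in part: they summed to 1313 CPM in OGT-deficient replicate 1 and 1842 CPM in OGT-sufficient replicate 3, and to between 3468 and 5664 CPM in the others. With their level in the fit, the log2 fold change of *Nagk* was 0.31 (adjusted p = 0.781). OGT-sufficient replicate 2 was low in *Nagk*, at 8.85 CPM, but had a macrophage marker sum of 3468 CPM. Whether macrophage content accounts for the *Nagk* levels was not tested.

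*Amdhd2* encodes the deacetylase of GlcNAc 6-phosphate and lies at chr17:24155833-24163766 (minus strand; mm10). Counts were 32, 27 and 17 in OGT-sufficient and 33, 44 and 36 in OGT-deficient samples (replicates 1, 2 and 3). The groups nearly separated: the highest OGT-sufficient sample was at 8.52 CPM and the lowest OGT-deficient sample at 8.48 CPM. Its log2 fold change of 0.52 (standard error 0.28, 95% interval -0.12 to 1.16) was the most positive of the 10 genes and did not pass the test (adjusted p = 0.755, edgeR's quasi-likelihood test). It was 0.30 without OGT-sufficient replicate 3 and 0.76 without OGT-sufficient replicate 1. *Gnpda1* encodes an isomerase and deaminase that converts glucosamine 6-phosphate to fructose 6-phosphate, against the direction of GFPT1. It had 89, 75 and 58 counts in OGT-sufficient and 59, 94 and 56 counts in OGT-deficient replicates 1, 2 and 3. Its groups overlapped almost completely, with a log2 fold change of -0.14 (standard error 0.25, 95% interval -0.70 to 0.42; adjusted p = 0.919).

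*Eogt*, at chr6:97110024-97149182 (minus strand; mm10), gave 62, 41 and 52 counts in OGT-sufficient samples (replicates 1, 2 and 3) and 41, 76 and 62 in OGT-deficient samples. In CPM the highest and the lowest value were both OGT-deficient, so the groups overlapped. Another annotated transcript on the opposite strand shares 416 of its 4900 exonic bases. Its log2 fold change was 0.16 (standard error 0.26, 95% interval -0.44 to 0.75; edgeR's quasi-likelihood test, adjusted p = 0.915).

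**Figure D3:**
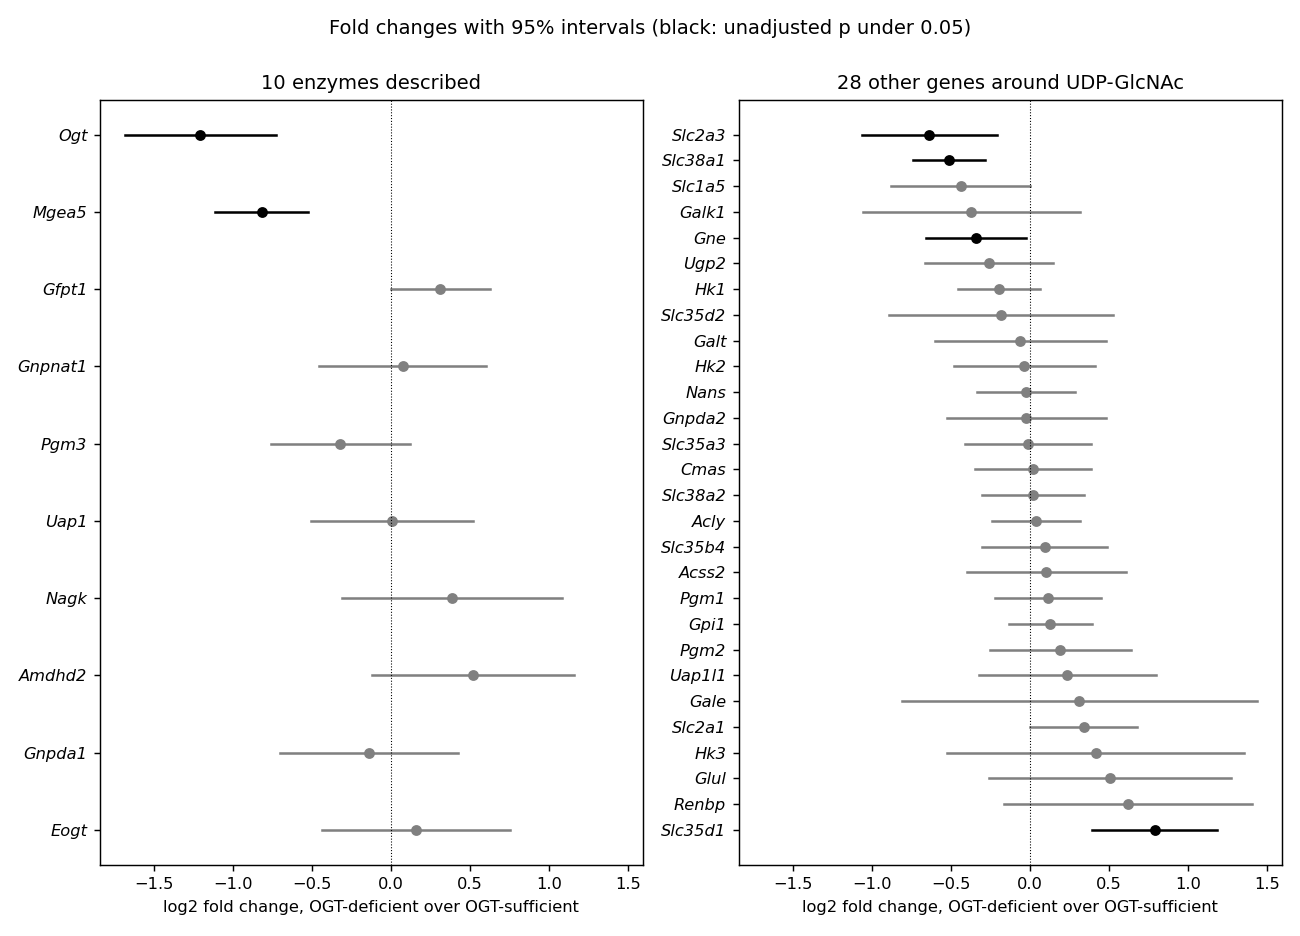
Log2 fold change, OGT-deficient over OGT-sufficient (x axis), of the 10 enzyme genes (left) and of 28 other genes around UDP-GlcNAc, those of lysosomal release not drawn (right), with 95% intervals from edgeR's quasi-likelihood fit; black marks an unadjusted p under 0.05. On the left the intervals of *Ogt* and *Mgea5* lie below 0 and the other 8 cross it; on the right 4 genes are black.

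Per length, the cycling enzymes were the most abundant of the 10. With CPM divided by kilobases of merged exons, OGT-sufficient samples had 34.6 ± 4.58 for *Mgea5* and 23.6 ± 6.67 for *Ogt* (SD, n = 3 each). *Gfpt1* followed at 7.66 ± 1.01, *Uap1* at 5.51 ± 1.598 and *Gnpda1* at 4.56 ± 0.988 (SD, n = 3 each). The other 5, *Pgm3*, *Eogt*, *Nagk*, *Gnpnat1* and *Amdhd2*, lay between 2.98 and 1.84 on average, in that order, and each overlapped its neighbour. *Uap1* and *Gnpda1* overlapped too, whereas *Mgea5*, *Ogt* and *Gfpt1* were each separate from the next. In OGT-deficient samples *Ogt* was at 10.2 ± 1.81 and *Gfpt1* at 9.50 ± 0.943 per kilobase (SD, n = 3 each), so their ranges overlapped there. Taking the longest transcript as the length left 6 of the 10 ranks the same, among them the first 5, and *Gfpt1* and *Uap1* then overlapped. By mean CPM, *Mgea5* exceeded 95.6% and *Ogt* 89.8% of the genes tested, and *Gfpt1* 82.5%, whereas the other 7 lay between 21.6% and 47.6%.

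**Figure D4:**
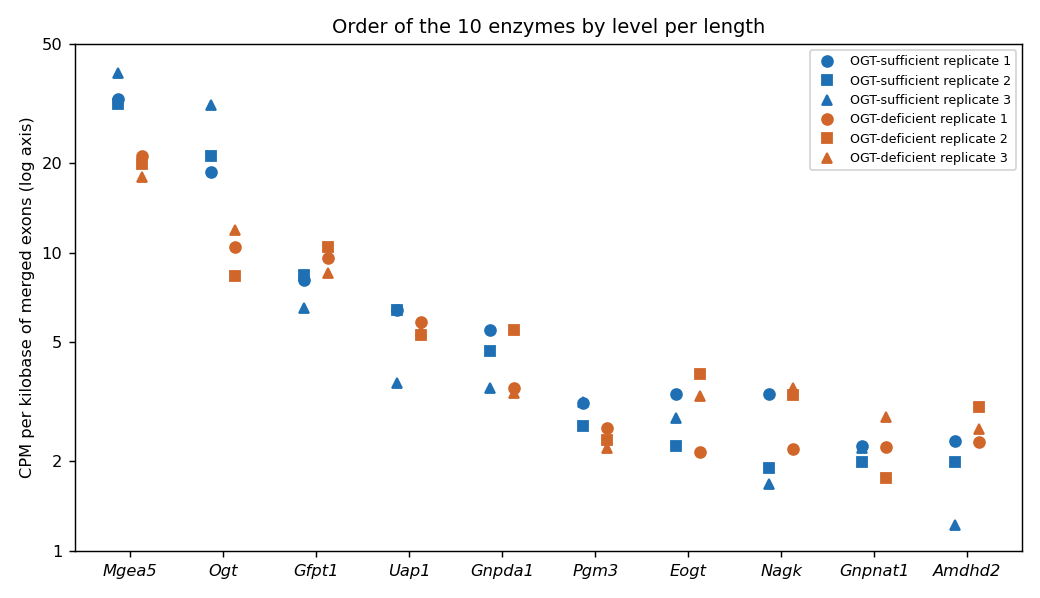
CPM per kilobase of merged exons (y axis, log scale) of the 10 enzyme genes, ordered by their mean in OGT-sufficient samples, in each OGT-sufficient (blue) and OGT-deficient (orange) sample; symbols mark the replicate. In OGT-sufficient samples *Mgea5* (34.6 on average) and *Ogt* (23.6) lie above *Gfpt1* (7.66), and in OGT-deficient samples *Ogt* (10.2) overlaps *Gfpt1* (9.50).

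OGT-sufficient replicate 3, the library with the most olfactory receptor genes counted, was an extreme for 7 of the 10 genes. The same share over all genes tested was not counted, so this is not shown to be particular to these enzymes. It was the highest sample for *Ogt*, *Mgea5* and *Pgm3*, and the lowest for *Gfpt1*, *Uap1*, *Nagk* and *Amdhd2*. Without it the log2 fold changes were smaller in size for these genes apart from *Uap1*: -0.94 for *Ogt*, -0.70 for *Mgea5*, -0.27 for *Pgm3*, 0.21 for *Gfpt1*, 0.21 for *Nagk* and 0.30 for *Amdhd2*, with the same signs. *Ogt* and *Mgea5* remained the 2 genes with an unadjusted p under 0.05 (0.000215 and 0.000162). When OGT-sufficient replicate 1 was left out, the number at an unadjusted p under 0.05 was 5, against 7.37% of all genes in that fit, since *Gfpt1* (0.0497), *Nagk* (0.0254) and *Amdhd2* (0.0448) were added, all with positive log2 fold changes and adjusted p between 0.662 and 0.674. The coefficient of variation between OGT-sufficient replicates ran from 6.72% for *Gnpnat1* to 39.5% for *Nagk*, and that of all genes tested had a median of 16.3% within groups.

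**Figure D5:**
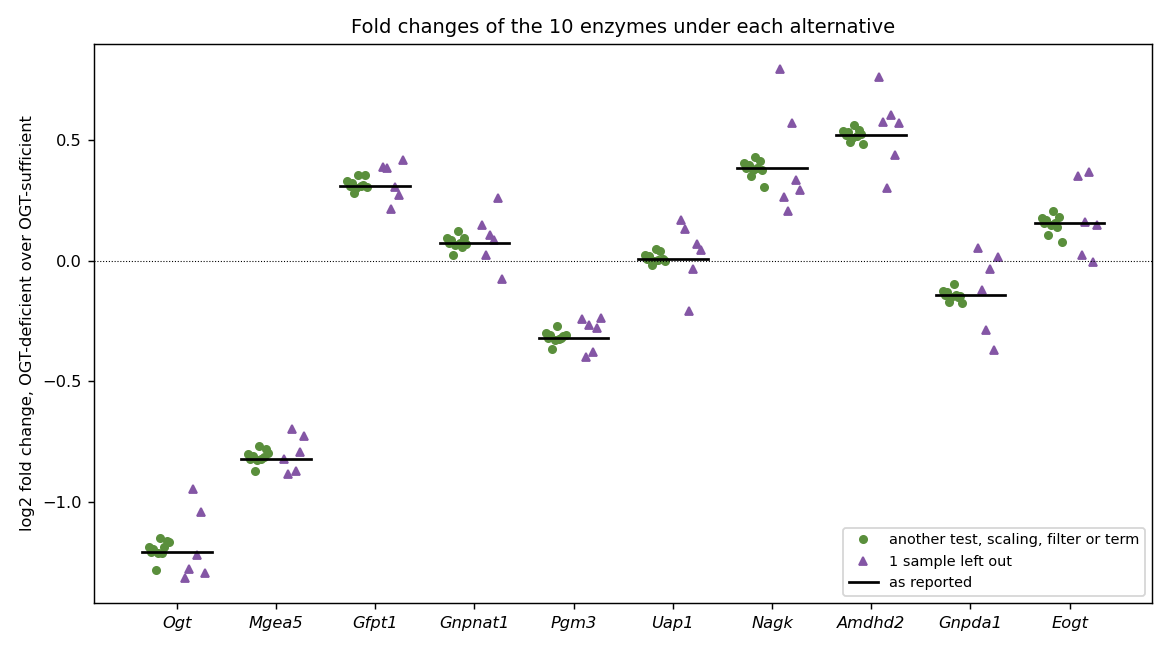
Log2 fold change, OGT-deficient over OGT-sufficient (y axis), of each of the 10 enzyme genes as reported (black line), with another test, scaling, filter or model term (green) and with 1 sample left out (purple). *Ogt* stays between -1.31 and -0.94 and *Mgea5* between -0.88 and -0.70, whereas points of *Gnpnat1*, *Uap1*, *Gnpda1* and *Eogt* lie on both sides of 0.

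Around these enzymes, a list of 35 further genes covered paralogs, the supply of glucose, glutamine and acetyl-CoA, transporters of nucleotide sugars, sialic acid synthesis and the lysosomal release of GlcNAc. The test covered 32 of them, and 0 passed an FDR of 0.1 in edgeR's quasi-likelihood test, against 1 with DESeq2 and 2 with edgeR's exact test, where 0.351% and 0.731% of all genes passed. At an unadjusted p under 0.05 there were 4, 3 lower and 1 higher, against 4.01% lower and 3.09% higher of all genes tested. The median log2 fold change of the 32 was 0.06. *Slc38a1*, which encodes a glutamine transporter, gave 555, 538 and 576 counts in OGT-sufficient samples (replicates 1, 2 and 3) and 405, 398 and 407 in OGT-deficient samples. With 148 ± 3.34 and 104 ± 3.01 CPM (SD, n = 3 each), its groups were far apart for their spread. The log2 fold change of -0.51 (standard error 0.10) had an adjusted p of 0.215 by edgeR's quasi-likelihood test. *Slc38a1* passed an FDR of 0.1 in 2 of 16 alternatives, DESeq2 (adjusted p = 0.0980) and edgeR's exact test (adjusted p = 0.0685). *Slc35d1*, which encodes a transporter that carries UDP-glucuronic acid and UDP-N-acetylgalactosamine into the endoplasmic reticulum, gave 136, 112 and 101 counts in OGT-sufficient samples (replicates 1, 2 and 3) and 227, 171 and 225 in OGT-deficient samples. Its log2 difference of 0.79 had a standard error of 0.18 (adjusted p = 0.306, edgeR's quasi-likelihood test). *Slc35d1* passed an FDR of 0.1 in 2 of 16 alternatives, edgeR's exact test (adjusted p = 0.0339) and the quasi-likelihood test without the low-count filter (adjusted p = 0.00985).

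*Slc2a3*, which encodes the glucose transporter GLUT3, was at 44.1 ± 10.6 CPM in OGT-sufficient and 28.4 ± 2.78 CPM in OGT-deficient samples (SD, n = 3 each). This gave a log2 fold change of -0.64, with 0.19 as its standard error (adjusted p = 0.516). *Gne*, which encodes the enzyme that takes UDP-GlcNAc into sialic acid synthesis, was at 34.1 ± 2.29 and 26.8 ± 2.32 CPM (SD, n = 3 each), and its log2 fold change of -0.34 had a standard error of 0.14 (adjusted p = 0.673). Of the 32 genes, 6 had separate groups, 3 lower and 3 higher, against 13.2% of all genes tested. Of the paralogs, *Gfpt2* was too low to be tested, with 2 to 9 counts in a library, against 250 to 416 for *Gfpt1*. *Gnpda2* (log2 fold change -0.02, standard error 0.22) and *Uap1l1* (0.24, standard error 0.25) overlapped between groups.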

How the data were processed

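Sorted Treg cells of female mice, 3 samples per genotype, were sequenced as RNA with paired ends. Per the submitters' processing notes, the authors trimmed reads with Trimmomatic 0.33, aligned them with Bowtie2 2.2.4.0 to mm10 and counted them with featureCounts, whereas the paper's methods name Cuffquant. The deposited whole numbers per gene symbol were taken as counts without normalization. Strand setting, annotation and treatment of shared reads are not given in the sources used here. The table also holds the authors' own fold changes and p-values, which were not used.

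Samples were grouped by their titles, which match the labelled genotypes. Nothing states whether libraries were prepared together, so p-values measure the spread between these samples. The count table was fitted whole in R 4.3.3 with edgeR 4.0.16: TMM scaling, removal of low genes by filterByExpr (minimum 10), quasi-likelihood test, and Benjamini-Hochberg adjustment over 10949 genes. Standard errors were derived from the fold change and its F statistic. As a check of the code, the fit was run on simulated counts drawn with its own estimates of spread. Such counts hold no library that stands apart, so they do not show how the test behaves on these samples. Alternatives were DESeq2 1.42.0, edgeR's exact test, other scalings and filters, the replicate number as a block, leaving out each sample, and, chosen after seeing the data, terms for gene length and GC and the macrophage list as a covariate. Gene positions and lengths are from GENCODE M21 (GRCm38), which is the build of mm10, and 23383 symbols matched it directly and 669 through a RefSeq synonym. The promoter sequence is from RefSeq GRCm38.p6. The named genes are the 10 enzymes, the paralogs and those at an unadjusted p under 0.05 of a list of 35 pathway genes, and the 5 genes most like *Ogt* and *Mgea5*. Some genes of the pathway list are counted but not reported here by name. Members and lists were chosen with earlier results of these data known. Total counts were between 3375454 and 4103552, and a floor of 3 counts covers counting error only. Replicates of a group differed by more than sampling noise (chi-square over its degrees of freedom, 3.49 to 24.2). The counts behind these values included *Rn45s*, whose share of the total also differed between samples, and its part in them was not tested. The deposited counts of B-cell, CD8 T-cell and myeloid markers overlapped between groups in their sums, which ranged from 71.2 to 240 CPM, from 12.01 to 26.5 CPM and from 122 to 219 CPM, with 1 of 5, 0 of 2 and 2 of 3 tested genes at an unadjusted p under 0.05 and 0 at an FDR of 0.1. Of all genes tested, 7.1% had an unadjusted p under 0.05. The 2 myeloid genes had opposite signs (*Lyz2*, log2 fold change 0.63, and *S100a9*, -2.86). The *S100a9* value rests mostly on OGT-sufficient replicate 3, with 292 counts. OGT-sufficient replicates 1 and 2 had 34 and 22 counts, and OGT-deficient replicates 1, 2 and 3 had 16, 19 and 14.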

Additional observations from a re-analysis of the deposited data

How the results depend on the processing

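Of 160 log2 fold changes of the 10 enzymes under 16 alternatives, 151 kept their sign and 9 did not. *Ogt* passed an FDR of 0.1 with DESeq2 (-1.18), edgeR's exact test (-1.21), no low-count filter (-1.15) and the macrophage covariate (-1.16), and so did *Mgea5*, which makes 2 of the 10 enzymes under each of these 4 against 0 as reported (0.351%, 0.731%, 0.665% and 0.283% of all genes, against 0.0274%). Leaving out a sample gave 0 of the 10 enzymes at an FDR of 0.1, against 0% to 0.0811% of all genes. It gave from 2 to 5 at an unadjusted p under 0.05, against 4.13% to 7.91% of all genes. The log2 fold changes of *Ogt* were then between -1.31 and -0.94. Of the 35 pathway genes, 1 passed an FDR of 0.1 with DESeq2, 2 with the exact test and 1 without a filter. Signs turned in genes near 0: with a sample left out, *Gnpnat1* ranged from -0.077 to 0.26, *Uap1* from -0.21 to 0.17, *Gnpda1* from -0.37 to 0.052, *Eogt* from -0.0063 to 0.37 and *Gnpda2* from -0.19 to 0.13. *Uap1* was also at -0.017 with library size only, -0.0023 with library size without *Rn45s* and -0.00013 with the macrophage covariate, and *Gnpda2* at 0.023 without a filter and 0.028 with the length and GC correction. The order by level kept 6 of 10 ranks with the longest transcript. After centring within groups, samples with the same replicate number had correlations of -0.281, 0.00726 and -0.118. With 3 samples per group these values cannot show whether such samples were prepared together. With the replicate block, *Ogt* was at -1.19 and *Mgea5* at -0.81. Of the 10 enzymes, 3 were then under 0.05 before adjustment, against 6.20% of all genes, and 0 under an FDR of 0.1, against 0% of all genes. For genes with under 100 counts per sample, wide intervals limit what could be detected; the cause of the other shifts was not tested.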
